A study of Mus musculus with 18 samples.

Results

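The yolk sac myeloid cells of embryonic day 12.5 (E12.5) were taken from 4 yolk sac libraries: every well with 1 sorted cell, as annotated by the authors, was kept if it held at least 300 unique molecular identifiers (UMIs, tags that mark single captured transcripts) on gene rows. These were 671 of the 3012 cells kept in the 18 libraries, with 172, 170, 160 and 169 cells in replicates 1 to 4. The other 89 of 760 single-cell yolk sac wells held fewer UMIs. The series followed myeloid cells from the yolk sac and the brain through development with MARS-seq, which sorts single cells into plates and counts the 3' ends of polyadenylated transcripts. Its brain cells at E12.5 numbered 718 in 4 libraries, those at embryonic day 18.5 (E18.5) 992 in 6 libraries, and those of the adult 631 in 4 libraries. All mice were untreated C57BL/6J animals that carried a green fluorescent protein (GFP) reporter at the Cx3cr1 locus, and the labels do not say whether the other Cx3cr1 copy was intact. The E12.5 gate, in both tissues, took cells with CD45, CD11b and the reporter, which selects leukocytes of the myeloid line. At E18.5 and in the adult the gate asked for intermediate CD45 and CD11b, so that gate and age changed together. Each plate gave 2 libraries, and the well annotation gave all E12.5 libraries 1 subject number. Yolk sac replicates 1 and 2 shared plate 3 and a sequencing batch with brain replicates 3 and 4 of E12.5, whereas yolk sac replicates 3 and 4 came from plate 4, in the batch of the later brain libraries. Nothing in the labels says that the replicates came from separate embryos. The p-values below therefore rest on library-to-library spread alone, part of which may be technical.

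The yolk sac is the first site of blood formation in the mouse. Its myeloid progenitors give rise to macrophages, phagocytes that depend on the receptor Csf1r, and some of these seed the embryo's tissues, the brain included, where they become microglia. Yolk sac macrophages are known for uptake receptors such as the mannose receptor Mrc1 and for the chemokine Pf4. Microglia, by contrast, are known for a set of genes induced in the brain, among them Tmem119, P2ry12 and the transcription factor Sall1.

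Library totals in yolk sac ran from 269698 to 309084 UMIs, with a median of 1511 UMIs per cell. The brain groups had medians of 1725 at E12.5, 983 at E18.5 and 521 in the adult. Levels are given below as CPM, a gene's UMIs scaled to a library total of 1000000, as mean ± SD over libraries. A 3' UMI is counted once per transcript, so CPM needs no scaling by length. Changes were tested with edgeR's quasi-likelihood test in 1 fit of all 18 libraries, over 4883 gene rows, and a row passed where its Benjamini-Hochberg adjusted p was below 0.05. Because libraries are sums over cells, fewer cells of a type and less RNA per cell cannot be told apart in them. The 3 comparisons with brain share the 4 yolk sac libraries.

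The label was checked against 6 yolk sac macrophage markers. Pf4, a chemokine also stored in platelets, was at 3079, 2536, 3229 and 3163 CPM in the 4 yolk sac libraries, and between 52.5 and 168 CPM in the E12.5 brain libraries. In adult brain it had 2 UMIs in all, and the ratio of its summed share to that of the adult was 543 (95% interval 150.3 to 4488, counting error only). No brain library came near the lowest yolk sac library. Mrc1, which takes up mannosylated glycoproteins, was at 166, 152, 1284 and 730.4 CPM in yolk sac replicates 1 to 4. Its libraries thus fell into a low pair on plate 3 and a high pair on plate 4. The low pair still lay above all E12.5 brain libraries, which spanned 4.38 to 56.2 CPM, but below the highest E18.5 library, at 172 CPM. F13a1, a subunit of clotting factor XIII made by macrophages, reached 314, 294, 679 and 545 CPM in yolk sac and 20.2, 13.1, 0 and 0 CPM in E12.5 brain. Pltp, a phospholipid transfer protein, and Ednrb, a receptor for endothelins, averaged 190.1 ± 27.95 and 231 ± 99.6 CPM in yolk sac. Neither exceeded 27.7 CPM in any brain library. Clec10a, a lectin that binds galactose-type sugars, was at 525, 374, 311 and 211 CPM in yolk sac and had 1 UMI in the whole E18.5 group and 0 in the adult.

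All 6 markers rose against each of the 3 brain groups, with median log2 fold changes of 4.98, 4.82 and 6.80 against −0.03, −0.03 and 0.05 over all gene rows. With counts summed per plate, so that each plate is 1 replicate, F13a1 (adjusted p = 0.0536, edgeR) and Mrc1 (adjusted p = 0.137) no longer passed against E12.5 brain. Summed over the list, the yolk sac libraries held 3698 to 6011 CPM and no brain library exceeded 281 CPM. These markers were named for this group with results of the same libraries known, so their direction is a description. The genes of the sort gate were present in all 4 libraries. Ptprc, which encodes CD45, averaged 189 ± 47.2 CPM in yolk sac and 187 ± 105 CPM in E12.5 brain (adjusted p = 0.963, edgeR). Itgam, which encodes CD11b, was at 122, 97.98, 388 and 282 CPM, lower on plate 3 than on plate 4. Cx3cr1, the fractalkine receptor that drives the reporter, was at 33.3, 58.1, 107 and 137 CPM in yolk sac against 180.0, 238, 124 and 105 CPM in E12.5 brain. The difference passed (log2 fold change −0.92, SE 0.30, adjusted p = 0.0304), but without the yolk sac libraries of plate 3 it was −0.42 and did not.

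The most abundant transcripts of the yolk sac cells were those of actin, of a lipid carrier and of ferritin. The 20 gene rows described here were the highest once ribosomal, mitochondrial and hemoglobin genes and rows joining several symbols were left out. With no row left out, the top 20 rows held 13.7% to 15.3% of the UMIs of a library. Actb, cytoskeletal actin, led with 29488, 27713, 31092 and 28817 CPM. Apoe, a lipid carrier, followed with 23075, 22622, 19946 and 21876 CPM, and Ftl1, the ferritin light chain that stores iron, with 21640, 20187, 15523 and 17831 CPM. These 3 rows lay well above the next of the 20 described, Sepp1, which averaged 5507 ± 1481 CPM. Sepp1 encodes a secreted carrier of selenium. It was higher in replicates 1 and 2, at 7123 and 6401 CPM, than in replicates 3 and 4, at 4335 and 4168 CPM.

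**Figure D1:**
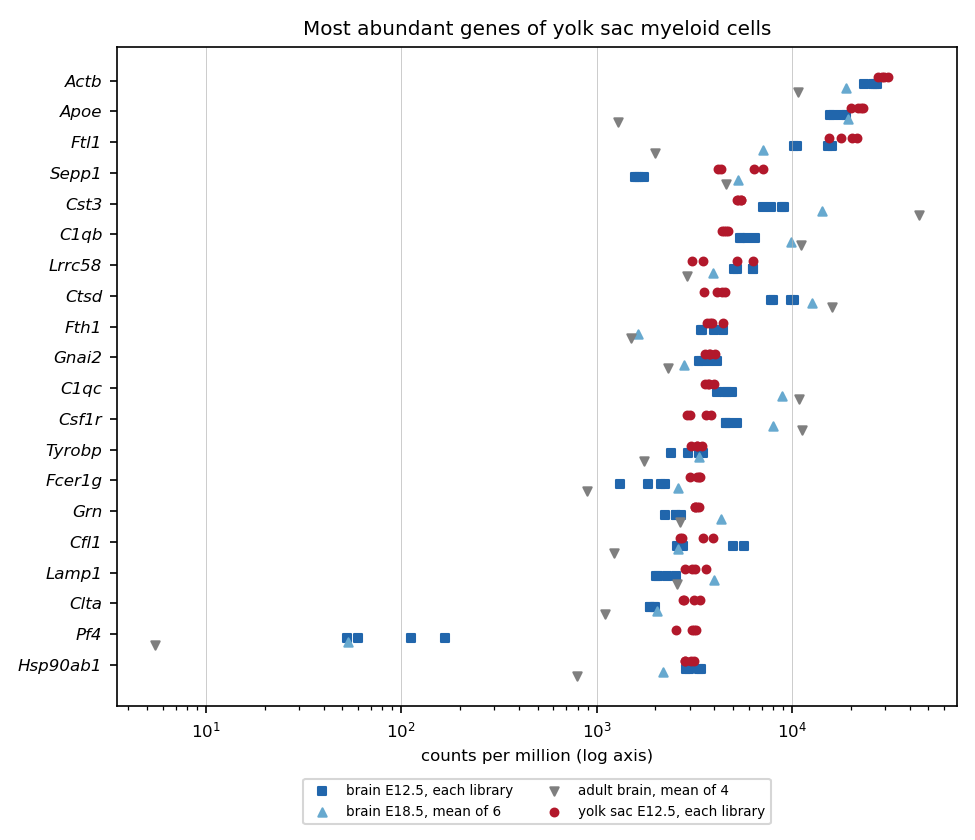
The 20 most abundant gene rows of the yolk sac cells, leaving out ribosomal, mitochondrial and hemoglobin genes and rows joining several symbols. They are ordered by mean, with the level in CPM on a log axis. Red dots are the 4 yolk sac libraries, blue squares the 4 E12.5 brain libraries, and the other symbols the means of 6 E18.5 and 4 adult brain libraries; the yolk sac values of Pf4 stand apart from all brain values, while those of Actb run from 27713 to 31092 CPM.

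The rest of the 20 included the cathepsin Ctsd (4149 ± 435 CPM) and the protease inhibitor Cst3 (5367 ± 148 CPM), the complement chains C1qb (4547 ± 142 CPM) and C1qc (3771 ± 164 CPM), and the growth factor receptor Csf1r (3346 ± 456 CPM). The activating adaptors Tyrobp (3254 ± 175 CPM) and Fcer1g (3242 ± 169 CPM) and the ferritin heavy chain Fth1 (3961 ± 329 CPM) were also among them. Lamp1, a lysosomal membrane protein (3187 ± 335 CPM), and Grn, the granulin precursor (3239 ± 75.6 CPM), lay at a like level. Gnai2, a G protein subunit, Cfl1, which severs actin filaments, the clathrin chain Clta, the chaperone Hsp90ab1 and Lrrc58, a leucine-rich repeat protein, lay between 2960 and 4539 CPM. Pf4 was the single yolk sac marker among the 20.

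Against E12.5 brain, 770 of 4883 rows passed (15.8%), 359 of them higher in yolk sac (7.35%) and 411 lower (8.42%). Within the sequencing batch that both tissues share, 870 rows passed, 472 of them higher, and with batch as a covariate 532 did. The first of these fits set 2 yolk sac libraries of plate 3 against 2 brain libraries of plate 2. It thus could not tell tissue from plate, and its spread came from libraries of the same plate. With counts summed per plate, 493 rows passed. Among the 20 abundant rows the shifts were small beside that of Pf4. Sepp1 rose by 1.80 on the log2 scale (SE 0.15, adjusted p = 6.80e-13, edgeR), with all 4 yolk sac libraries above the highest E12.5 brain library, at 1744 CPM. Ctsd fell by 1.06 (SE 0.12, adjusted p = 7.23e-09), from 8958 ± 1250 CPM in brain. The smaller shifts of Fcer1g (0.84), Clta (0.71), Ftl1 (0.57), Lamp1 (0.56) and Grn (0.42) were rises that passed, and those of Cst3 (−0.57) and Csf1r (−0.47) were falls that passed. Of these, Ftl1 and Lamp1 did not pass without the yolk sac libraries of plate 3, nor Csf1r without those of plate 4. With counts summed per plate, Ftl1, Lamp1, Grn, Cst3 and Csf1r did not pass (adjusted p from 0.0674 to 0.174). Actb, Apoe, Fth1, Tyrobp, C1qb and C1qc did not pass against E12.5 brain. With the adult as the reference, however, Apoe at 21880 ± 1381 CPM faced 1292 ± 713 CPM, a rise of 4.10 (SE 0.31, adjusted p = 2.54e-08), and Ftl1 rose by 3.24 (SE 0.15, adjusted p = 7.29e-21).

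Rows were called set apart when they passed against all 3 brain groups in 1 direction and when the 4 yolk sac libraries did not overlap any of the 14 brain libraries. In the E18.5 comparison 1780 rows passed (36.5%), 876 of them higher in yolk sac (17.9%) and 904 lower (18.5%). In the adult comparison 2188 of the 4883 rows passed (44.8%), 1121 of them higher in yolk sac and 1067 lower. The list counts given below for each direction are to be read beside these numbers for all tested rows. A total of 174 rows (3.56%) were set apart upward and 230 rows (4.71%) downward. Regardless of the test, the yolk sac libraries lay wholly above those of E12.5 brain in 408 rows (8.36%) and wholly below in 565 (11.6%). The shares were 12.8% and 13.4% against E18.5 brain and 20.9% and 18.9% against the adult. The median of the smallest of the 3 fold changes was 1.36 on the log2 scale among the higher rows and 1.67 among the lower ones. In 51 of the higher rows and 82 of the lower ones all 3 changes were at least 2. Of the 174 higher rows, 157 averaged at least 100 CPM in yolk sac and 40 were on one of the lists described below. Between the yolk sac plates, 11 of the 174 were higher on plate 4 and 6 lower.

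**Figure D2:**
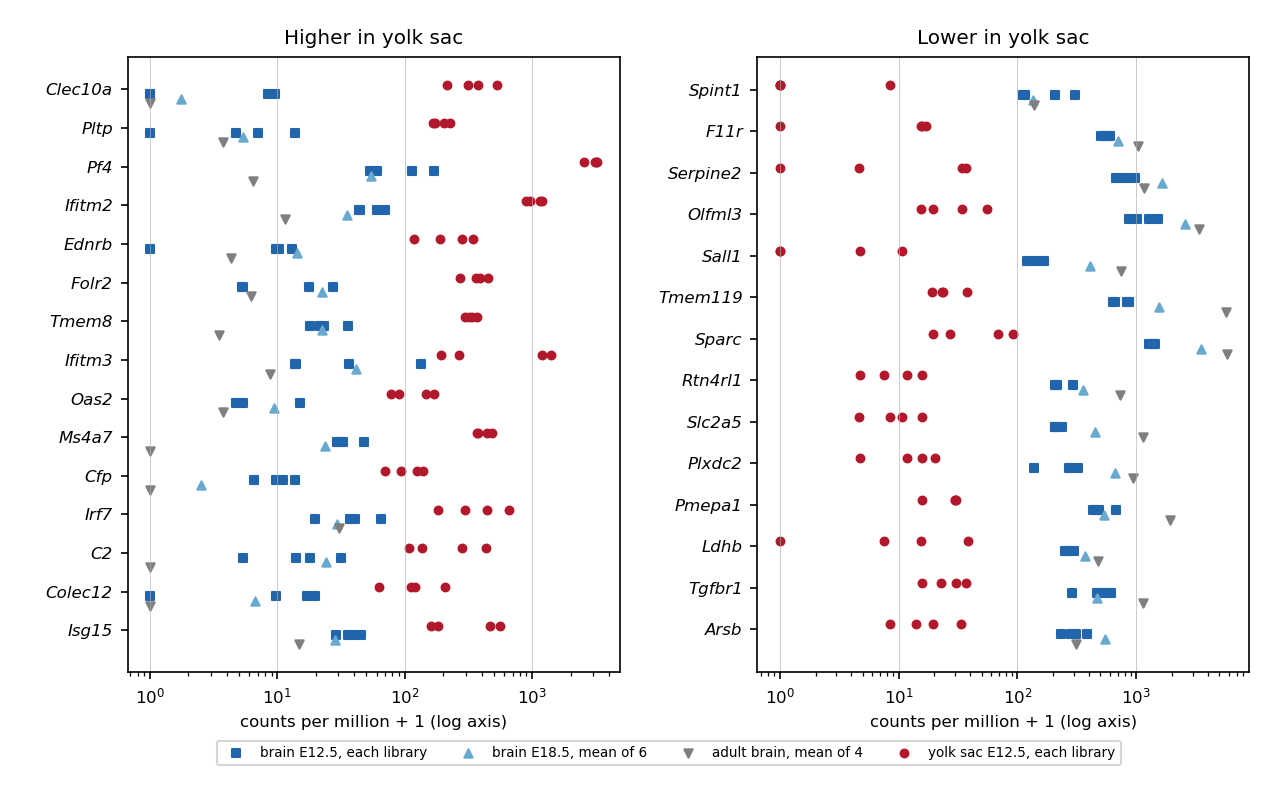
Levels of 15 rows higher (left) and 14 rows lower (right) in yolk sac than in all 3 brain groups, as CPM + 1 on a log axis, chosen for the largest smallest fold change. Red dots are the 4 yolk sac and blue squares the 4 E12.5 brain libraries, and triangles the means of 6 E18.5 (upward) and 4 adult (downward) libraries; by the rule that chose the rows the yolk sac libraries lie apart from the 14 brain libraries, and those of Ifitm3 split by plate, with 192 and 265 CPM the lower pair.

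Among the 15 rows set apart upward by the widest margin, Clec10a and Pltp came first. Folr2, a folate receptor of macrophages, was at 363, 272, 450 and 389 CPM in the yolk sac libraries, against 26.3, 16.8, 4.29 and 4.38 CPM in E12.5 brain, a log2 fold change of 4.60 (SE 0.36, adjusted p = 1.81e-13, edgeR). Ms4a7, a membrane protein of macrophages outside the brain tissue proper, held 437, 370.1, 372 and 486 CPM in yolk sac and at most 47.1 CPM in any brain library. With 0 UMIs in adult brain, it was at least 49.9-fold higher in yolk sac. Tmem8, a transmembrane protein, was at 370.0, 316, 336 and 293 CPM against a highest brain library of 41.7 CPM.

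C2, a complement protease, was at 107, 134, 278 and 430.1 CPM in yolk sac, with more on plate 4 (log2 1.51, adjusted p = 0.000925). It had 0 UMIs in the adult and was at least 28.7-fold higher than there. Cfp, or properdin, which stabilises the complement convertase, averaged 105 ± 30.5 CPM in yolk sac and 9.34 ± 3.01 CPM in E12.5 brain. Colec12, a scavenger receptor with a collagen domain, averaged 125 ± 60.5 and 10.9 ± 8.42 CPM in the same groups. Both had 0 UMIs in adult brain, which puts them at least 12.7-fold and 15.3-fold higher in yolk sac than there.

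Transcripts of the interferon response were largely set apart upward. Their list held 23 rows, 14 of them tested, and 13 of these rose against E12.5 brain, 12 against E18.5 brain and 12 against the adult. The number set apart from all 3 was 12 of 14. The median log2 fold changes were 2.20, 2.63 and 3.86, and no tested member fell in edgeR or DESeq2 or at an unadjusted p under 0.05. Summed, the list reached 4415, 4812, 8085 and 8443 CPM in yolk sac replicates 1 to 4 and at most 1830 CPM in any brain library. The plate 3 libraries were the lower pair and still lay above all brain libraries.

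Ifitm2 and Ifitm3 are membrane proteins that block viral entry. Ifitm2 was at 1155, 1179, 961 and 886 CPM in the yolk sac libraries, against 53.9 ± 12.6 CPM in E12.5 brain, a log2 fold change of 4.32 (SE 0.27, adjusted p = 5.76e-16, edgeR). Ifitm3 was at 192, 265, 1391 and 1190.2 CPM, 2.46 higher on plate 4 on the log2 scale (SE 0.39, adjusted p = 0.00111). Without the plate 4 libraries its change against E12.5 brain was 2.12 and did not pass (adjusted p = 0.147). The 2 genes are close relatives, and whether counting of 3' reads split their transcripts unevenly was not tested. Oas2, which senses viral RNA, averaged 120 ± 44.1 CPM in yolk sac and at most 28.7 CPM in a brain library. Irf7, the transcription factor that amplifies the response, and Isg15, a ubiquitin-like protein, were at 181 and 159 CPM in replicate 1 and at 657 and 466 CPM in replicate 3. Ifi27l2a, a mitochondrial protein induced by interferon, held 670, 784, 945 and 1631 CPM in yolk sac against 166 ± 59.0 CPM in E12.5 brain (log2 2.64, SE 0.26, adjusted p = 2.21e-09). The row ISG12a;Ifi27l1, which joins 2 symbols, did not pass, with 74.6 ± 25.8 CPM in yolk sac and 74.5 ± 14.2 CPM in E12.5 brain (adjusted p = 0.946).

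The promoters of these genes were searched for the interferon-stimulated response element, taken here as GAAA, any 2 bases and GAAA again, on both strands of the 250 bases before the transcription start (RefSeq, GRCm38.p6). Of the 23 list rows, 16 had a promoter in the table and 8 of these (50%) held the element, against 978 of all 32851 promoters (2.98%). For the list the first promoter of a symbol was taken, while the reference counted every promoter. The list was made of known interferon response genes, so its share is a description and no test. The match nearest the start is shown in capitals, 5' to 3' on the gene's strand, for 2 set-apart genes. The Ifitm2 stretch is chr7:140955973-140956032 and that of Isg15 is chr4:156200850-156200909, both on the minus strand.
Ifitm2: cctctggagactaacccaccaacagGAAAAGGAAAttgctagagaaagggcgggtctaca
Isg15: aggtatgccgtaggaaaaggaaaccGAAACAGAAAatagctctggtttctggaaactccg
The capitals begin 46 bases before the start in Ifitm2, with 1 match in the window, and 66 bases before it in Isg15, where 3 matches overlap. Ifitm3 and Irf7 held no match to these letters in the same window. A match describes the letters and shows no binding.

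Microglia markers were lower in the yolk sac cells. Of 19 tested microglia markers all 19 fell against each brain group, and 18 were set apart; the exception was Cx3cr1, whose yolk sac and brain libraries overlapped. No member rose in edgeR or DESeq2 or at an unadjusted p under 0.05. The median log2 fold changes were −3.52, −5.22 and −5.89. The list still summed to 6941 to 7352 CPM in the yolk sac libraries, of which Cst3 made the larger part, against 17805 to 19364 CPM in E12.5 brain and 88360 to 101634 CPM in the adult. Sparc, a protein of the extracellular matrix, averaged 50.8 ± 34.4 CPM against 1387 ± 68.5 CPM in E12.5 brain. Slc2a5, a fructose transporter, was at 8.89 ± 4.67 CPM in yolk sac and at 214 ± 14.6, 452 ± 35.1 and 1140 ± 210.3 CPM in the brain groups by age. These genes were near, but not at, 0 in yolk sac: Sall1 had 4 UMIs and Tmem119 28.

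Other rows set apart downward were not on the microglia list. Spint1, an inhibitor of serine proteases on the cell surface, had 2 UMIs in yolk sac, both in replicate 4, and 315 in E12.5 brain. The ratio of brain to yolk sac was 119 (95% interval 32.6 to 986). F11r, a junctional adhesion molecule, was at 14.8, 14.5, 16.2 and 0 CPM in yolk sac and 501 to 595 CPM in the E12.5 brain libraries. Plxdc2, a plexin domain protein, Arsb, a lysosomal sulfatase, and Ldhb, a lactate dehydrogenase chain, averaged 12.2 ± 6.66, 17.9 ± 10.8 and 14.5 ± 16.2 CPM in yolk sac. In E12.5 brain the same 3 rows averaged 251 ± 80.5, 302 ± 62.5 and 270.1 ± 21.3 CPM. Serpine2, a protease inhibitor, was an exception in its spread: it was at 0 and 3.63 CPM on plate 3 and 35.6 and 33.4 CPM on plate 4, all far below the lowest brain library at 674 CPM.

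Signalling by TGF-beta is known to maintain microglia in the brain. None of 11 tested members rose, in edgeR or DESeq2 or at an unadjusted p under 0.05, while 6 fell against E12.5 brain and 9 against each of E18.5 and adult brain. The ligand gene Tgfb1 did not pass, with 523 ± 81.4 CPM here and 471 ± 65.8 CPM in E12.5 brain (adjusted p = 0.521, edgeR). Its receptor Tgfbr1, however, was at 14.8, 21.8, 35.6 and 29.7 CPM against 284 to 608 CPM (log2 −4.13, SE 0.26, adjusted p = 2.47e-16). Of the feedback inhibitors, Smad7 averaged 7.04 ± 3.93 against 77.9 ± 16.7 CPM and Pmepa1 25.7 ± 7.24 against 510 ± 111 CPM.

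Macrophage transcription factors were divided. Of 20 tested, 4 rose and 5 fell against E12.5 brain, 1 rose and 10 fell against E18.5 brain, and 13 fell against the adult. Sfpi1, which encodes the lineage factor PU.1, did not pass against any brain group, at 879 ± 65.4 CPM in yolk sac, 868 ± 90.8 CPM in E12.5 brain and 902 ± 99.2 CPM in the adult. Sall3, a relative of Sall1, had 5.44 ± 4.85 CPM in yolk sac against 85.1 ± 10.6 CPM in E12.5 brain. Immediate early genes, which are switched on fast after a stimulus, were higher than in E12.5 brain for 4 of 15 tested members and lower than at E18.5 and in the adult for 12 each. Fos, a subunit of the factor AP-1, passed in both directions, with 47.7 ± 26.5 CPM in yolk sac, 6.39 ± 6.79 CPM in E12.5 brain, 1189 ± 181 CPM at E18.5 and 1258 ± 75.3 CPM in the adult. Jun, its partner, was at 129 ± 69.8, 62.0 ± 16.9, 921 ± 201 and 2620 ± 593 CPM in the same order.

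Of 16 tested receptors for uptake, 8 rose and 4 fell against E12.5 brain, 8 and 5 against E18.5 brain, and 10 and 6 against the adult. Msr1, a scavenger receptor for modified lipoproteins, was at 85.1, 72.6, 113 and 92.7 CPM in yolk sac and had 2 UMIs in E12.5 brain, a ratio of 68.2 (95% interval 18.4 to 571). Fcgr1, a high-affinity receptor for antibodies, averaged 1498 ± 507 CPM against 665 ± 165 CPM (log2 1.22, SE 0.21, adjusted p = 3.72e-05, edgeR), and was 0.81 higher on plate 4. The low-affinity receptor Fcgr3 did not pass, at 1212 ± 246 and 689 ± 379 CPM (adjusted p = 0.0654).

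Genes of iron and heme handling were higher for 6 of 11 tested members against E12.5 brain and lower for 1, with 5 higher and 3 lower against each later group. Hmox1, heme oxygenase, which opens the heme ring, was at 492, 294, 598 and 419 CPM in the yolk sac libraries, against 154, 109, 201 and 87.5 CPM in E12.5 brain. The libraries did not overlap, and the log2 fold change was 1.77 (SE 0.27, adjusted p = 5.76e-06, edgeR). Blvrb, a biliverdin reductase, averaged 660 ± 94.5 against 175 ± 43.0 CPM, with a change of 1.99 (SE 0.22, adjusted p = 3.23e-09). For the transferrin gene Trf the yolk sac libraries were at 466, 294, 1252 and 775 CPM and overlapped those of E12.5 brain, at 397, 432, 129 and 123 CPM. Its rise of 1.38 had an adjusted p of 0.0438 (edgeR), and did not pass in several alternatives, such as without yolk sac replicate 3 or 4.

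Of 22 tested lysosomal genes, 3 rose and 9 fell against E12.5 brain, 1 rose and 17 fell against E18.5 brain, and 2 rose and 10 fell against the adult. Lgmn, an asparagine endopeptidase, was at 2612, 2384, 1692 and 1861 CPM against 4719 to 5866 CPM in E12.5 brain (log2 −1.25, SE 0.14, adjusted p = 1.89e-09, edgeR). Gusb, a glucuronidase, averaged 112 ± 17.95 against 340 ± 55.2 CPM. Ctss, a cathepsin of antigen processing, averaged 839 ± 200 CPM, whereas its E12.5 brain libraries split by batch into 4202 and 3901 CPM and 1414 and 1221 CPM. It did not pass without the yolk sac libraries of plate 3 (−1.37). Hexa, a hexosaminidase chain, did not pass, at 1768 ± 229 and 1546 ± 94.1 CPM (adjusted p = 0.285).

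Complement and chemokine genes changed in both directions. Of 8 complement members 2 rose and 2 fell against E12.5 brain, 2 and 5 against E18.5 brain, and 3 and 5 against the adult. C1qa averaged 1970 ± 213 CPM, against 4451 ± 839 CPM in E12.5 brain (log2 −1.13, SE 0.14, adjusted p = 3.14e-08, edgeR), while the other chains of C1q did not pass. C5ar1, the receptor for the complement fragment C5a, was at 107, 109, 100.3 and 74.2 CPM against 8.57 to 28.3 CPM. Of 11 chemokine genes 6 rose and 2 fell against E12.5 brain, 1 rose and 6 fell against E18.5 brain, and 5 rose and 3 fell against the adult. Of these, 1, Pf4, was set apart from all 3 brain groups. The monocyte attractant Ccl2 averaged 109 ± 52.0 CPM among yolk sac libraries and 4.01 ± 6.83 CPM in E12.5 brain, but 90.9 CPM at E18.5.

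Growth factor genes included 5 higher and 2 lower members of 11 tested against E12.5 brain, 3 and 3 against E18.5 brain, and 3 and 2 against the adult. Igf1, a growth factor, was at 388, 283, 482 and 578 CPM in yolk sac and 35.0 to 66.8 CPM in E12.5 brain (log2 3.18, SE 0.32, adjusted p = 7.68e-10, edgeR). Igfbp4, which binds it, averaged 1037 ± 212 against 203 ± 49.0 CPM. Both were also higher than at E18.5 and in the adult. Csf1, the ligand of Csf1r, had 15.3 ± 4.09 CPM in yolk sac and 49.7 ± 31.4 CPM in E12.5 brain.

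Of 12 tested galectins, annexins and S100 proteins, 8 rose against E12.5 brain and 9 against each later group, 1 fell against each, and 7 were set apart upward. Lgals1, galectin-1, was at 3471, 2798, 2375 and 2844 CPM in yolk sac, 636 ± 85.5 CPM in E12.5 brain, 85.1 ± 26.0 CPM at E18.5 and 20.1 to 87.9 CPM in the adult. No brain library came near the lowest yolk sac library. Lgals3, galectin-3, was at 141, 123, 340 and 348 CPM in yolk sac, higher on plate 4, and averaged 28.1 ± 11.3 CPM in E12.5 brain. S100a10 averaged 223 ± 40.3 and 57.8 ± 13.4 CPM in these groups. Anxa3 fell, from 238 ± 39.4 CPM in E12.5 brain to 68.0 ± 8.81 CPM. The intermediate filament Vim did not pass, at 630.4 ± 125 and 329 ± 43.3 CPM (adjusted p = 0.289).

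Of 5 tested genes for presentation on MHC class II, none rose against E12.5 brain (edgeR, DESeq2, or unadjusted p under 0.05) and 3 fell, among them H2-DMa, which loads peptides, at 31.6 ± 11.5 CPM against 262 ± 23.4 CPM. Of 10 MHC class I genes 4 rose and 1 fell against E12.5 brain, the last being Tap2, a peptide transporter, at 11.7 ± 4.99 against 43.9 ± 9.82 CPM. Against the adult 2 rose and 4 fell. Myd88, the adaptor of Toll-like receptors, rose to 320 ± 53.6 from 176 ± 58.0 CPM, and Tlr13 fell. Of 14 lipid transport genes 1, Pltp, rose against E12.5 brain and 3 fell in edgeR (2 and 2 in DESeq2), with Abcg1, a cholesterol exporter, at 39.1 ± 3.07 against 239 ± 47.8 CPM.

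Cytoskeletal, energy and redox genes were counted in the same way. Of 19 actin cytoskeleton genes 2 rose and 2 fell against E12.5 brain, 12 rose and 1 fell against E18.5 brain, and 12 rose against the adult. Pfn1, which delivers actin monomers, was at 1935 ± 291, 1520 ± 113, 906 ± 56.2 and 452 ± 71.7 CPM in yolk sac and the 3 brain groups by age. Of 10 glycolysis genes 1 rose and 3 fell against E12.5 brain in edgeR, and 1 and 1 in DESeq2. These 4 edgeR calls, on Hk3, Slc2a1, Aldoa and Pkm2, were lost with batch as a covariate and with counts summed per plate. Against E18.5 brain 2 rose and 2 fell, near the shares of all tested rows (17.9% and 18.5%), and against the adult 6 rose. Antioxidant enzymes rose for 1 of 13 against E12.5 brain and 8 of 13 against the adult, among them Gpx3, an extracellular glutathione peroxidase, at 1316 ± 254 CPM and 2 UMIs in all adult cells. Its summed share was 237 times that of the adult (95% interval 65.4 to 1957). The imprinted transcript H19, whose row joins several symbols, was at 222, 620.5, 1032 and 972 CPM in the yolk sac libraries, against 42.3 ± 38.4 CPM in E12.5 brain, and Igf2bp1, an oncofetal RNA-binding protein, had 213 ± 76.7 CPM and 0 UMIs in the adult.

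Of 12 tested S phase and 14 mitosis genes, none passed against E12.5 brain in edgeR or DESeq2. At an unadjusted p under 0.05, 1 S phase gene was higher and 3 mitosis genes were lower. Against the adult, 9 and 11 of them rose. Mcm6, a subunit of the replicative helicase, averaged 184 ± 45.5 CPM in yolk sac and 175 ± 32.9 CPM in E12.5 brain, and Hmgb2, a chromatin protein of dividing cells, 261 ± 29.5 and 235 ± 40.4 CPM.

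Markers of other cell types were read in the same libraries. The granulocyte precursor list, granule proteases of young neutrophils and their progenitors, summed to 488, 650, 618 and 1620 CPM in yolk sac and to 136 to 201 CPM in E12.5 brain. The same list summed to 280 to 1294 CPM at E18.5 and to 2521 to 9505 CPM in adult brain, where all 4 libraries lay above those of yolk sac. S100a9, Ltf, Camp and Ngp, genes of later neutrophil granules, had 0 UMIs in yolk sac. Elane, neutrophil elastase, was at 70.3, 25.4, 201 and 512 CPM and Mpo, myeloperoxidase, at 174, 192, 201 and 423 CPM, so that replicate 4 was highest in both. Erythroid genes ran from 307 to 5367 CPM between the yolk sac libraries and from 16.8 to 635 CPM between those of E12.5 brain. Counted over hemoglobin rows alone, 5 yolk sac cells held at least 50 UMIs each, 1 of them 1167 of its 11943 UMIs. Without these cells the 4 libraries were at 226, 1608, 342 and 536 CPM.

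Yolk sac endoderm genes, which the absorptive layer of the yolk sac makes, summed to 122 to 316 CPM, with Alb and Spink3 at 0, and did not exceed 8.09 CPM in E12.5 brain. Lymphocyte, dendritic cell, mast cell and mesenchyme lists summed to at most 214, 389, 22.6 and 90.7 CPM. Among the lymphocyte genes Cd3e, Cd3d, Cd79a, Ncr1, Ms4a1 and Il7r had 0 UMIs, as had Xcr1, Clec9a, Cd209a and Ccr7 in the dendritic cell list. The monocyte list reached 18.5 to 200.2 CPM, with Ly6c1, Chi3l3 and Cd177 at 0. Neural genes summed to 25.9 to 80.9 CPM in yolk sac and 451 to 520.4 CPM in E12.5 brain. Endothelial genes summed to 44.4, 356, 48.5 and 48.2 CPM in yolk sac replicates 1 to 4 and to 52.5 to 129 CPM in E12.5 brain. Of the 32 yolk sac UMIs of Pecam1, a member of that list, 15 lay in 1 cell. Blood progenitor genes summed to 167 to 566 CPM in yolk sac and 333 to 553 CPM in E12.5 brain, ranges that overlapped. Of 3 tested members 2 fell and 1 did not pass against E12.5 brain. Against E18.5 brain 1 rose and 1 fell, and against the adult 1 rose and 2 fell. Cd34, a surface sialomucin on this list, fell to 46.8 ± 14.9 from 169 ± 29.9 CPM in E12.5 brain (log2 −1.78, SE 0.29, adjusted p = 7.11e-06, edgeR). What part RNA of these other cells had in the differences above was not tested.

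Cell by cell, Pf4 was widely found and the other markers in far fewer cells. Cells were thinned to 500 UMIs each, which left out 34 of 671 yolk sac and 26 of 718 brain cells, and a cell was then counted for a gene when it held at least 1 UMI. At that depth 77.7% ± 7.74 of yolk sac cells held at least 1 of the 6 markers, against 6.11% ± 2.90 of E12.5 brain cells (SD, n = 4 libraries each). Pf4 was seen in 61.5% ± 6.13, Mrc1 in 19.9% ± 16.3, F13a1 in 19.2% ± 7.34 and Clec10a in 14.0% ± 5.15 of yolk sac cells, and in 3.84%, 1.27%, 0.698% and 0.301% of brain cells. Pltp and Ednrb were in 10.35% ± 2.605 and 9.76% ± 1.68 of yolk sac cells and in 0.579% and 0.700% of brain cells. Without thinning, Pf4 was found in 530 of 671 cells (79.0%), 278 of them with at least 5 UMIs and the highest with 27. Csf1r was seen in 77.1% ± 6.66 and a C1q chain in 95.3% ± 1.99 of thinned cells, against 88.4% ± 1.68 and 96.6% ± 2.06 in brain. Timd4, a phosphatidylserine receptor of some embryonic macrophages, was in 0 of 637 thinned cells and, without thinning, in 7 of 671 (1.04%), with 1 UMI each. Empty yolk sac wells held 14 to 33 UMIs each, and the part of free RNA in low shares was not tested.

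Shares of cells with at least 2 UMIs of a list were compared over libraries by 2-sided exact permutation tests, in a family of 5 comparisons with Benjamini-Hochberg adjustment. The 2 libraries of a plate counted as separate units. The shares were not tested by plate, as 2 plates against 2 are too few for an exact test to pass. Interferon response transcripts were found in 55.2%, 63.0%, 69.3% and 81.5% of yolk sac cells and 20.5%, 14.7%, 13.9% and 12.0% of brain cells. The tissues did not overlap, and yolk sac was 52.0 percentage points higher (exact p = 0.0286, the smallest that 4 against 4 libraries allows, adjusted p = 0.0476). Unthinned, the means were 89.9% and 51.0%. Granulocyte precursor transcripts were in 3.03%, 4.94%, 5.23% and 23.6% of yolk sac cells and 0%, 0%, 0.602% and 2.41% of brain cells (exact p = 0.0286, adjusted p = 0.0476). Replicate 4 set much of this mean, and without it the difference fell from 8.44 to 3.65 points.

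Cell-cycle transcripts were in 31.5%, 27.2%, 28.1% and 31.8% of yolk sac cells against 38.6%, 40.2%, 31.9% and 52.4% of brain cells, 11.1 points fewer (exact p = 0.0286, adjusted p = 0.0476). Within the sequencing batch the tissues share, yolk sac replicates 1 and 2 remained below brain replicates 3 and 4, by the narrow gap of 31.5% to 31.9% at its closest. With cells thinned to 300 UMIs none of the 3 shares passed. The interferon share was then 50.2% against 6.93% (exact permutation, adjusted p = 0.0714). As no exact p can be below 0.0286, whether a share passes depends also on the other tests of the family. The number of genes per thinned cell, 366 ± 3.75 in yolk sac and 375 ± 11.9 in brain, did not pass (exact permutation, adjusted p = 0.321).

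**Figure D3:**
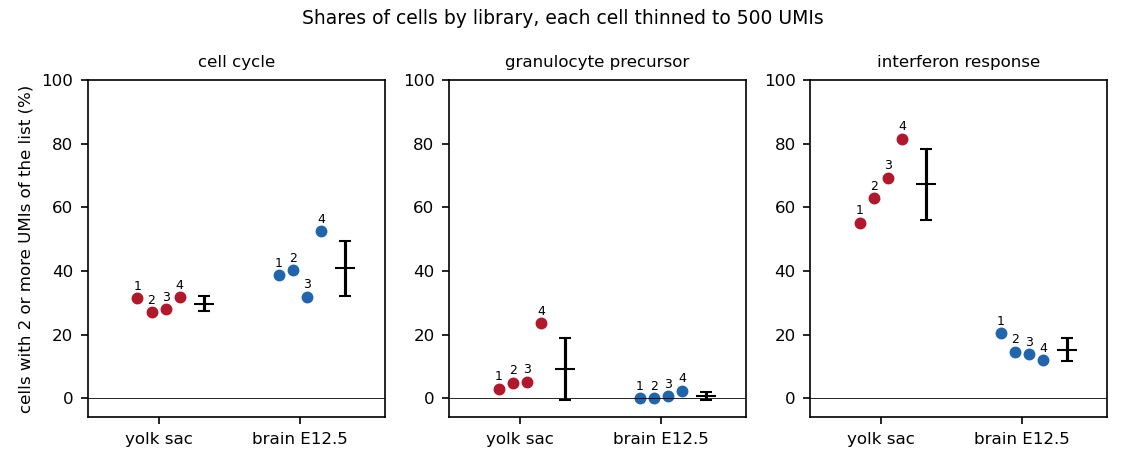
Shares of cells with at least 2 UMIs of the cell-cycle, granulocyte precursor and interferon response lists, in percent, each cell thinned to 500 UMIs. Points are libraries numbered by replicate, in yolk sac and E12.5 brain, and bars the mean ± SD of 4; yolk sac replicate 4 stands at 23.6% for the granulocyte list, above the other 3 yolk sac libraries.

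Variation between cells was then measured for each row as the variance of its thinned UMIs over their mean, which is 1 for counting noise alone. In 153 cells of each library, 1960 rows had a mean of at least 0.05 UMIs, and the median ratio was 1.06. Only 10 rows reached 1.5 in all 4 yolk sac libraries. Apoe had the highest lowest value, with ratios of 3.93 to 4.73 between yolk sac libraries and of 3.56 to 5.29 between E12.5 brain libraries, ranges that overlapped. Pf4 had ratios of 2.38 to 2.79 in yolk sac. Ifi27l2a reached 2.19 to 4.19 in yolk sac and 1.21 to 2.78 in brain. Sepp1 had ratios of 1.58 to 2.47 at a mean of 2.94 UMIs per cell in yolk sac and of 1.06 to 1.18 at 0.833 UMIs in brain. Lgals1 had ratios of 1.38 to 1.70 at 1.40 UMIs and of 1.08 to 1.33 at 0.319 UMIs. The ratio can grow with the mean, and the means differed between the tissues, so these ratios show no difference in variation by themselves. Ftl1, Hmox1, Cd52, a small glycoprotein of leukocytes, and Malat1, a nuclear noncoding RNA, ran from 1.81 to 2.75, 1.62 to 5.41, 1.598 to 2.46 and 1.43 to 7.39. Hbb-b1, Hba-a2 and the H19 row were the other rows past 1.5 in all 4 libraries.

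Some of this spread rested on few cells. Hmox1 was found in 200 of 671 cells, with 70 UMIs in the highest, and the top 5 cells of a library held 35.4% to 60.5% of its UMIs. Lyve1, a hyaluronan receptor, was in 58 cells, and the top 5 held 57.2% to 85.7%. Pf4, by contrast, had 11.6% to 14.9% of its UMIs in the top 5 cells of a library, so the top cells held a smaller part of it. Rows past 1.5 in a library numbered 67, 70, 106 and 129 in yolk sac and 63, 52, 89 and 93 in E12.5 brain. The difference did not pass (exact permutation, adjusted p = 0.371) and changed sign within the shared batch, where yolk sac had 22.5 fewer.

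**Figure D4:**
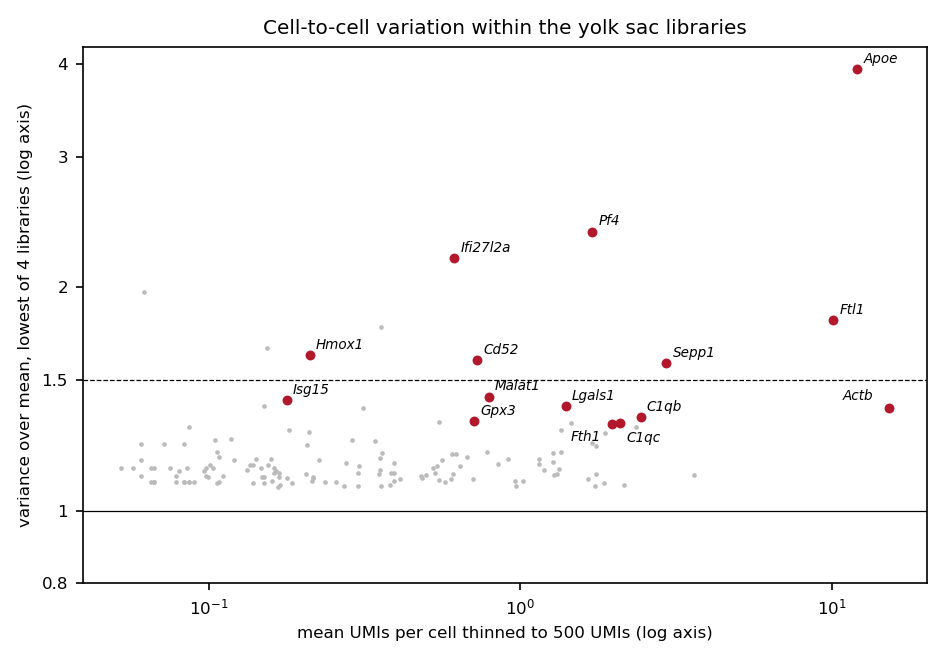
Variance over mean of thinned UMIs per cell (log axis, the lowest of the 4 yolk sac libraries) against mean UMIs per cell (log axis), for the 150 rows with the highest values only. Red dots are the 15 named rows, the solid line marks counting noise at 1 and the dashed line 1.5; Apoe lies highest at 3.93, followed by Pf4 at 2.38 and Ifi27l2a at 2.19.

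Clustering of the 671 cells gave 4 groups at a resolution of 0.5, and its genes are a description, since the same cells formed the clusters. Cluster 1 (254 cells) held 62.8% and 64.7% of the cells of replicates 1 and 2 but 3.75% and 17.8% of those of replicates 3 and 4. Cluster 3 (199 cells) held 2.33% and 2.35% of replicates 1 and 2 and 68.1% and 48.5% of replicates 3 and 4. These 2 clusters thus followed the plates. Genes leading cluster 3 were Ifit3, Ifit2, Isg20 and Xaf1, interferon-induced genes, and Fcgr4, an antibody receptor, and those leading cluster 1 were Car1, a carbonic anhydrase, Clec10a (647 CPM against 219 CPM in other cells) and Ypel3. Cluster 2 (211 cells) was drawn more evenly, with 26.9% to 34.9% of each library, and was led by Napsa, an aspartic protease, Prtn3, proteinase 3 of young granulocytes, and mitotic genes such as Aurka and Tpx2. Cluster 4, of 7 cells, was led by embryonic and adult globins and by Alas2, the first enzyme of heme synthesis, found in 5 of them. Its top 10 also held Col4a1, Plvap and Lrrc32, each found in 1 cell only. Endothelial genes summed to 4559 CPM in it and 59.5 CPM elsewhere, and mesenchyme genes to 1393 and 24.4 CPM. These sums pool the UMIs of all 7 cells, whose median was 584 UMIs. Its 1 cell from replicate 2 held 11943 UMIs, so the sums describe mostly that cell. The cluster therefore stayed without a name.

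**Figure D5:**
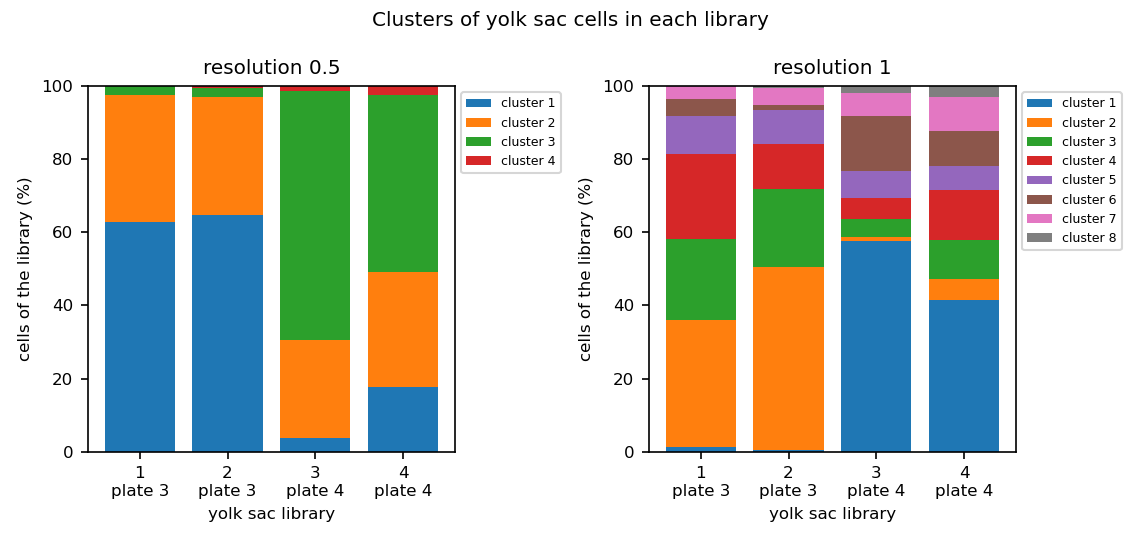
Share of each yolk sac library's cells in each cluster, in percent, as stacked bars at resolutions of 0.5 (4 clusters) and 1 (8 clusters). Clusters 1 and 3 at a resolution of 0.5 trade places between replicates 1 and 2 (plate 3) and replicates 3 and 4 (plate 4), while cluster 2 keeps 26.9% to 34.9%.

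A resolution of 1 split the cells into 8 clusters and drew out 3 small groups with cells on both plates, though not all of their leading genes were found on both. The first, 57 cells, had 3 genes of the blood progenitor list among its top 10, Ifitm1, Cd34 and Ptprcap. It stayed without a name, since these were found in 24.6%, 29.8% and 15.8% of its cells. Cd34 was at 337, 238, 283 and 168 CPM in its cells of replicates 1 to 4, against at most 25.0 CPM in the other cells of a library. Ifitm1 was at 3466 CPM in its cells of replicate 3 and at 314, 214 and 101 CPM in those of replicates 1, 2 and 4, so that the pooled 858 CPM lay above 3 of the 4 libraries. It held 6.51% to 10.5% of the 4 libraries, with a median of 2200 UMIs. Prtn3 was at 1252 CPM there and at 66.3 CPM elsewhere, and S phase genes summed to 4149 against 1028 CPM. Macrophage genes were low but present: C1qb lay at 977 to 1280 CPM in the 4 libraries against 4843 to 5208 CPM in the other cells, Csf1r at 1145 to 1425 against 3129 to 4346 CPM, and Pf4 at 95.01 to 876 against 2977 to 3629 CPM. The 6 yolk sac macrophage markers summed to 595 CPM in it and 5485 CPM outside.

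Granule genes were not all held by these cells. Prtn3 in replicate 4 was at 1449 CPM in the cells of this first group and 146 CPM in the others. Elane, in contrast, was at 270 and 542 CPM there, and 86 of the 158 other cells of replicate 4 held it. In replicate 1 it was at 112 and 62.0 CPM. Of the Elane UMIs of replicate 4, 130 lay in the other cells and 8 in the first group.

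The next group, 50 cells, was led by Lyve1 and by genes of division such as Mki67, Top2a, a topoisomerase, and Kif14. It held 4.65%, 1.18%, 15.0% and 9.47% of replicates 1 to 4, with 2 cells from replicate 2. Lyve1 was at 311, 444, 2275 and 419 CPM in its cells of replicates 1 to 4, so that the pooled 1387 CPM lay above 3 of the 4 libraries. Yolk sac macrophage markers summed to 8618 CPM in it against 4537 CPM elsewhere, and mitosis genes to 4104 against 1446 CPM. The last, 40 cells, was led by the MHC class II genes H2-Aa, H2-Eb1 and H2-Ab1, by Cd74, by Lgals3 (2351 against 97.8 CPM), by S100a6 and by Crip1 and Cd9. S100a6 had 0 UMIs in its 6 and 8 cells of replicates 1 and 2 and was at 1195 and 839 CPM in those of replicates 3 and 4, and H2-Aa had 0 UMIs in those of replicate 1. This group of 40 cells stayed without a name. H2-Aa, H2-Eb1 and H2-Ab1 were each found in 10% of its cells and Cd74 in 35%, and 4 defining dendritic cell genes, named above, were at 0. Pf4 in it lay at 800.5 to 1151 CPM, below the 2610 to 3417 CPM of the other cells. These 40 cells were 3.49%, 4.71%, 6.25% and 9.47% of the libraries.

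The 5 other clusters at that resolution were 165 cells with interferon genes (list sum 11070 against 4793 CPM; 57.5% and 41.4% of replicates 3 and 4, 1.16% and 0.588% of replicates 1 and 2), 157 cells with Car1, mostly from plate 3, 100 cells with Cenpe, Tpx2 and Birc5 of mitosis, 93 cells with Apoa1, Mt2 and Gstm1, and 9 cells with globins. Apoa1, an apolipoprotein, is on the yolk sac endoderm list, which summed to 631 CPM in those 93 cells and 145 CPM elsewhere. With the cell-cycle genes left out, 5 clusters formed and the adjusted Rand index with the 4 was 0.840, against 0.518 for the 8 of the finer resolution.

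The plates were compared directly, 2 libraries against 2 within the fit. Between plate 4 and plate 3, 310 of 5896 rows passed (5.26%), 216 higher on plate 4 (3.66%) and 94 lower (1.59%). The largest rise was that of the row named for the microRNA locus Mir682, at 0 and 3.63 CPM on plate 3 and 256 and 215 CPM on plate 4. Cox6c, a subunit of cytochrome oxidase, was at 25.9 and 18.1 against 356 and 234 CPM, Fcgr4 at 3.70 and 10.9 against 155 and 81.6 CPM, and S100a6 at 7.40 and 10.9 against 120 and 92.7 CPM. Lyve1 was at 25.9 and 25.4 CPM on plate 3 and at 492 and 104 CPM on plate 4 (log2 3.49, SE 0.61, adjusted p = 0.000683, edgeR), so that replicate 3 stood above its plate mate.

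Among the markers and interferon genes, Mrc1 was 2.62 higher on plate 4 (SE 0.26, adjusted p = 1.51e-14, edgeR), Ifitm3 2.46 and Isg15 1.54, and 5 of 14 tested interferon genes rose with none falling. Malat1, at 814 and 726 CPM on plate 3 and 2239 and 2529 CPM on plate 4, was 1.59 higher (adjusted p = 2.94e-15), and its E12.5 brain libraries also differed by batch, at 1748 and 1717 against 531 and 503 CPM. The lower rows included Sepp1 (−0.71), Wipi2 (−1.64) and Fam174a (−1.40). Of the 6 yolk sac macrophage markers 2 were higher on plate 4, Mrc1 among them, and 4 did not pass. Pf4, Pltp, Ms4a7 and Clec10a did not pass between plates (adjusted p from 0.0876 to 0.966). Plate, sequencing batch and any difference between the embryos sampled cannot be told apart here.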

How the data were processed

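MARS-seq libraries of single sorted cells, 18 in all, were measured. The values deposited by the authors are counts, UMIs per gene row and well, not normalized. Per the submitters' processing notes, bcl2fastq 2.15.0.4 and the mm9 build were used; for the aligner, UMI filter and annotation, the choice is not given in the sources used here. Of 27297 gene rows, 2109 join several symbols. Wells with 1 cell and at least 300 UMIs were kept, and no doublet caller was run. UMIs were summed per library and tested with edgeR 4.0.16 (R 4.3.3; TMM, filterByExpr, robust quasi-likelihood, whole library totals), which was tested on simulated data; DESeq2 1.42.0 was an alternative. Shares were compared by exact permutation after thinning cells to 500 UMIs. Clusters used scanpy 1.11.5 (1000 variable rows, 20 components, 15 neighbours, leiden). Intervals cover counting error only, and a count of 0 was set to a floor of 3.

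Samples were grouped by source name. The genes named were the 20 most abundant single-symbol rows, 15 set-apart rows each way by smallest fold change (at least 100 CPM), the markers and gate genes, up to 4 changed and 1 member that did not pass per list, the 15 rows that varied most, leading cluster genes and the 5 largest plate differences each way; other rows named in the text were chosen after their values were seen. Members and lists were chosen with earlier results of these data known. Promoters came from RefSeq (GRCm38.p6) and were matched by symbol. A few rows that the rule selects are not reported here.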

Additional observations from a re-analysis of the deposited data

Results flagged for a closer look

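Of 157 groups of libraries examined, 10 held a library far from the others by Dixon's criterion, where chance gives about 5%. Replicate 4 of yolk sac was the highest for Spint1 (7.42 CPM, 2 UMIs), for Mpo (423 CPM) and for the share of cells with granulocyte precursor transcripts (23.6%), and the lowest for F11r (0 CPM). Replicate 3 was the highest for Lyve1 (492 CPM), Ifitm1 (339.7 CPM) and the Ccl4;ScyA4 row (113 CPM), and the lowest for Itgb2 (51.8 CPM). Replicate 1 was the lowest for Pmepa1 (14.8 CPM), and replicate 2 the highest for Pecam1 (65.3 CPM). In replicate 3, which gave 12 of the 57 cells grouped with Cd34, Ifitm1 was at 3466 CPM in those 12 and 24.9 CPM in the others. Of the 12 cells, 4 held it.

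The 8 yolk sac wells annotated as empty held 208 UMIs, which no comparison used. Of these, 7 were of Apoe, 4 of Sepp1 and 3 each of Ftl1, Aif1 and the Lyz1;Lyz2 row.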

How the results depend on the processing

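No paired analysis was possible because the replicate numbers were given in accession order and pair no libraries across groups. Among up to 137 named genes and the counts and shares compared, no called direction was reversed in the alternatives run; other rows were not examined for this. Thinning the libraries to 1 total of 74562 UMIs left 371 rows changed against E12.5 brain, 963 against E18.5 brain, 1234 against the adult and 194 set apart. Summing counts per plate left 493 rows against E12.5 brain and ended the call of 27 of the 137 named genes, among them Mrc1, F13a1, Ifitm3, Ctss, Cx3cr1, Trf, Jun, Tap2, Tlr13, Pfn1 and Gpx3. Batch as a covariate ended 18 calls, among them those of Ctss, Jun, Csf1, Tap2 and Tlr13. The plate comparison gave 541 rows with only the yolk sac libraries in the fit. With cells thinned to 300 UMIs the differences in share were −7.11 points for cell-cycle, 3.90 for granulocyte precursor and 43.3 for interferon transcripts. With at least 3 UMIs required the cell-cycle difference was −6.25. None of these 4 passed, which depends also on the other tests adjusted with each. The difference in rows varying between cells was −22.5 within the shared batch. Leaving out 1 library at a time gave 624 to 805 rows against E12.5 brain, 1612 to 1872 against E18.5 brain, 2056 to 2250 against the adult and 376 to 421 set apart. The same step gave differences of −14.1 to −7.27 points for cell-cycle, 3.65 to 10.5 for granulocyte precursor and 47.2 to 56.0 for interferon transcripts, −12.8 to −5.12 genes per cell and 6.75 to 27.4 varying rows.

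Without the yolk sac libraries of plate 3, 700 rows changed against E12.5 brain, and without those of plate 4, 550; this alternative, the one without cells rich in hemoglobin (780 rows) and the shares within the shared batch were added after seeing the data. RLE scaling gave 767 rows, 382 of them higher, and DESeq2 779, 399 of them higher. Library sizes summed over tested rows gave 774 rows, 344 of them higher; the choice of whole totals was made after both counts were seen. Elane lost its call without plate 4 (2.76) and with batch as a covariate (1.84). Of the genes named, leaving out 1 library ended the call against E12.5 brain for Cx3cr1 (yolk sac replicate 1 or 2, brain replicate 1 or 2), Jun (yolk sac 3, E12.5 brain 1), Csf1 (yolk sac 3, E12.5 brain 2), Tap2 (yolk sac 3) and Tlr13 (E12.5 brain 2). Of 18 such fits, Trf lost its call in 13, Pfn1 in 12, Pkm2 in 5, Slc2a1 and Aldoa in 4 each and Hk3 in 1. Calls were gained by Fcgr3 (E12.5 brain 1 or 2), Itgam and Lrrc58 (yolk sac 3), Cd74 and Igf2bp1 (yolk sac 1), Ifitm1 (yolk sac 4, E12.5 brain 3), C1qb (E18.5 brain 5), Hba-a2 (E18.5 brain 6) and Vim (adult brain 1). Depth limits each comparison, as the thinned counts show; the adult libraries held 74562 to 99494 UMIs. The cause of these shifts was not tested.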
